A study of Mus musculus with 12 samples.

Results

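The population described here is the LY6D- SCA1high fraction of cells sorted from mouse prostate, set gene by gene against the 5 other fractions of the same sort. Its members were chosen by the cell population label alone: 2 of the 12 libraries carry it, and the other 10 libraries form the other populations, with 2 libraries each. The study separated cells from the prostates of wild-type C57BL/6 mice aged 6 to 8 weeks by 2 surface proteins, LY6D (present or absent) and SCA1 (high, intermediate or low), after cells bearing the lineage proteins CD31, CD45 or Ter119 had been left out. The 6 populations are LY6D- SCA1high, LY6D- SCA1low, LY6D- SCA1int, LY6D+ SCA1low, LY6D+ SCA1int and LY6D+ SCA1high. None of them carries a transgene or had a treatment, per the labels. Trizol-extracted RNA, 10 to 20 ng per library, was made into QuantSeq 3' libraries, in which each read counts the 3' end of a polyadenylated RNA. The series text calls the 2 libraries of a population biological replicates but does not say whether they came from separate animals or pools, so each p-value measures the spread between these libraries, which may be technical.

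Prostate luminal cells line the ducts and make the secretion of the gland, and cells near the urethra, called proximal, carry more SCA1 than the secretory cells of the distal ducts. SCA1, encoded by Ly6a, is a small protein anchored in the outer membrane. It is not restricted to epithelium: in mice it also marks blood vessel endothelium, many stromal cells and blood stem cells, and its gene responds to interferon. CD31, encoded by Pecam1, is the adhesion protein of endothelial junctions that is commonly used to gate endothelium out of an epithelial sort. Interferons act through JAK kinases and STAT factors, which bind the GAS element, and through IRF factors, which bind the ISRE element. The targets include guanylate binding proteins, immunity-related GTPases and the machinery that loads peptides onto MHC class I.

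The libraries held 8436185 to 20022077 counts, with 9950859 in LY6D- SCA1high replicate 1 and 20022077 in replicate 2. Ribosomal RNA features took 6.97% to 24.4% of the counts of a library. Some libraries held counts that followed another library: over genes abundant in a single library, a share of that library's counts was found again elsewhere. LY6D- SCA1low replicate 2 held 13.2% of the counts of LY6D- SCA1high replicate 1 (median of 42 genes), and LY6D- SCA1high replicate 2 held 7.87% of those of LY6D- SCA1low replicate 1 (63 genes). A further 13.7% of the counts of LY6D+ SCA1high replicate 2 was found in LY6D+ SCA1int replicate 2. Across genes every library correlated better with some library of another population than with its own replicate. For LY6D- SCA1high replicate 1 this was LY6D- SCA1low replicate 2 (r = 0.756, against 0.643 with its own replicate). For LY6D+ SCA1high replicate 1 it was LY6D+ SCA1int replicate 1 (r = 0.711, against 0.578). Genes are not independent replicates. Results are therefore also given with these counts subtracted. They are also given without a pair of doubted libraries, LY6D- SCA1low replicate 2, which received such counts, and LY6D+ SCA1high replicate 2, which received none but had the lowest total (8436185) and the fewest genes with 10 or more counts (7512). The share of LY6D- SCA1high counts found in LY6D- SCA1int was at most 0.329%.

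Genes were compared as CPM, read counts relative to library size after TMM scaling. A log2 fold change is the log2 of the fitted mean level of LY6D- SCA1high minus the average of the 5 other populations' values. A fitted mean can rest largely on 1 of the 2 libraries of a population. Of 15270 genes tested with edgeR's quasi-likelihood test, 690 were higher in LY6D- SCA1high at an adjusted p under 0.05, which is 4.52% of the genes tested, and 84 were lower, which is 0.55%. Genes past that threshold are named as called below. The higher genes are given by level, with the mean log2 CPM in this paragraph rounded before the cut at 4. Before rounding, 196 of them and 6580 of all tested genes stood at 4 or more. Of the 197 with a mean log2 CPM of 4 or more, 163 stood above all 10 other libraries in both LY6D- SCA1high libraries, and in 4 one LY6D- SCA1high library was over 10 times the other. Of the 493 at lower levels, 138 stood above all 10, and in 339 one LY6D- SCA1high library was over 10 times the other. Over all tested genes 4.36% stood above all 10 other libraries and 1.35% below all 10. Above all 10 were 5.2% of those at a mean log2 CPM of 4 or more and 3.72% at lower levels. One LY6D- SCA1high library was over 10 times the other in 12.7% of all genes at 4 or more and 56.1% at lower levels. The shares among the higher genes were 2.03% and 68.8%. All 84 lower genes had a mean log2 CPM of 4 or more, and 35 of them lay below all 10 other libraries. The count of 774 called genes was 360 without both doubted libraries, 455 without LY6D+ SCA1int replicate 2, the other library that received over 10% of another's counts, 273 with the carried-over counts subtracted and 180 to 462 when any 1 of the 12 libraries was left out, so each library on its own moved it by over 1.5 times. With the 10 other libraries taken as 1 group, which puts the differences among the other populations into the error, 3 genes were called. DESeq2 called 408 genes higher and 298 lower.

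**Figure D1:**
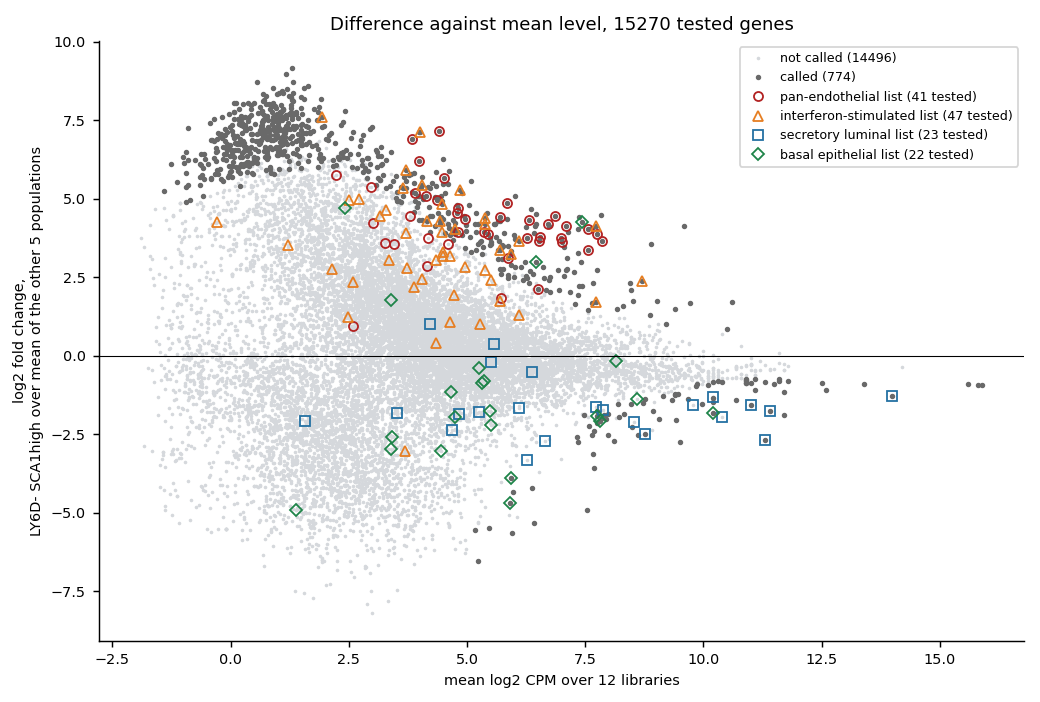
Each point is 1 of the 15270 tested genes, with its mean log2 CPM over the 12 libraries on the horizontal axis and its log2 fold change, LY6D- SCA1high over the mean of the other 5 populations, on the vertical axis. Dark points are the 774 called genes; the 41 pan-endothelial and 47 interferon-stimulated genes lie mostly above 0, and the 23 secretory and 22 basal genes mostly below it.

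The sorted proteins' genes followed the gates. Ly6d stood at 0.938 and 3.85 CPM in the LY6D- SCA1high libraries, against a lowest of 0.433, a median of 45.8 and a highest of 397 CPM in the 10 others. The 2 LY6D- SCA1high values lie with the other LY6D- populations and below every LY6D+ library, and the log2 fold change against all 5 populations was -2.88 ± 0.95 (SE, edgeR adjusted p = 0.0768). Ly6a (ENSMUSG00000075602, chromosome 15, 74994877 to 74998031, minus strand, GRCm38) stood at 593 and 477 CPM in LY6D- SCA1high, against 3.37 to 245 CPM with a median of 62.2 CPM in the others. Both libraries lay above all 10 others, LY6D+ SCA1high included, and the log2 fold change was 3.27 ± 0.45 (SE, adjusted p = 7.27e-05).

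The other 3 genes taken here as markers of the fraction were called higher. The labels do not name them, and they were chosen with earlier results of these data known, so their calls are no independent check. Esam, an adhesion molecule of endothelial tight junctions and platelets, stood at 697 and 989 CPM in LY6D- SCA1high, against 3.78 to 355 CPM with a median of 57.7 CPM in the others (log2 fold change 3.66 ± 0.54, SE, edgeR adjusted p = 0.000144). Iigp1, an interferon-inducible GTPase that attacks the vacuoles of intracellular parasites, stood at 972 and 723 CPM in LY6D- SCA1high, against 7.28 to 283 CPM with a median of 41.8 CPM in the others (4.14 ± 0.4, adjusted p = 2.06e-07). Irf1, a transcription factor of the interferon response, stood at 1150 and 1250 CPM in LY6D- SCA1high, against 68.5 to 573 CPM with a median of 191 CPM in the others (2.38 ± 0.35, adjusted p = 0.000137). For all 3 genes the LY6D- SCA1high libraries did not overlap the others, and LY6D- SCA1int was next in the order of population means. Irf1 was detected well above 0 in every population, whereas Esam and Iigp1 were lowest in LY6D+ libraries before subtraction of carried-over counts. After it Iigp1 stood at 0 CPM in both LY6D- SCA1low libraries, against 0 to 41.8 CPM in the LY6D+ libraries.

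**Figure D2:**
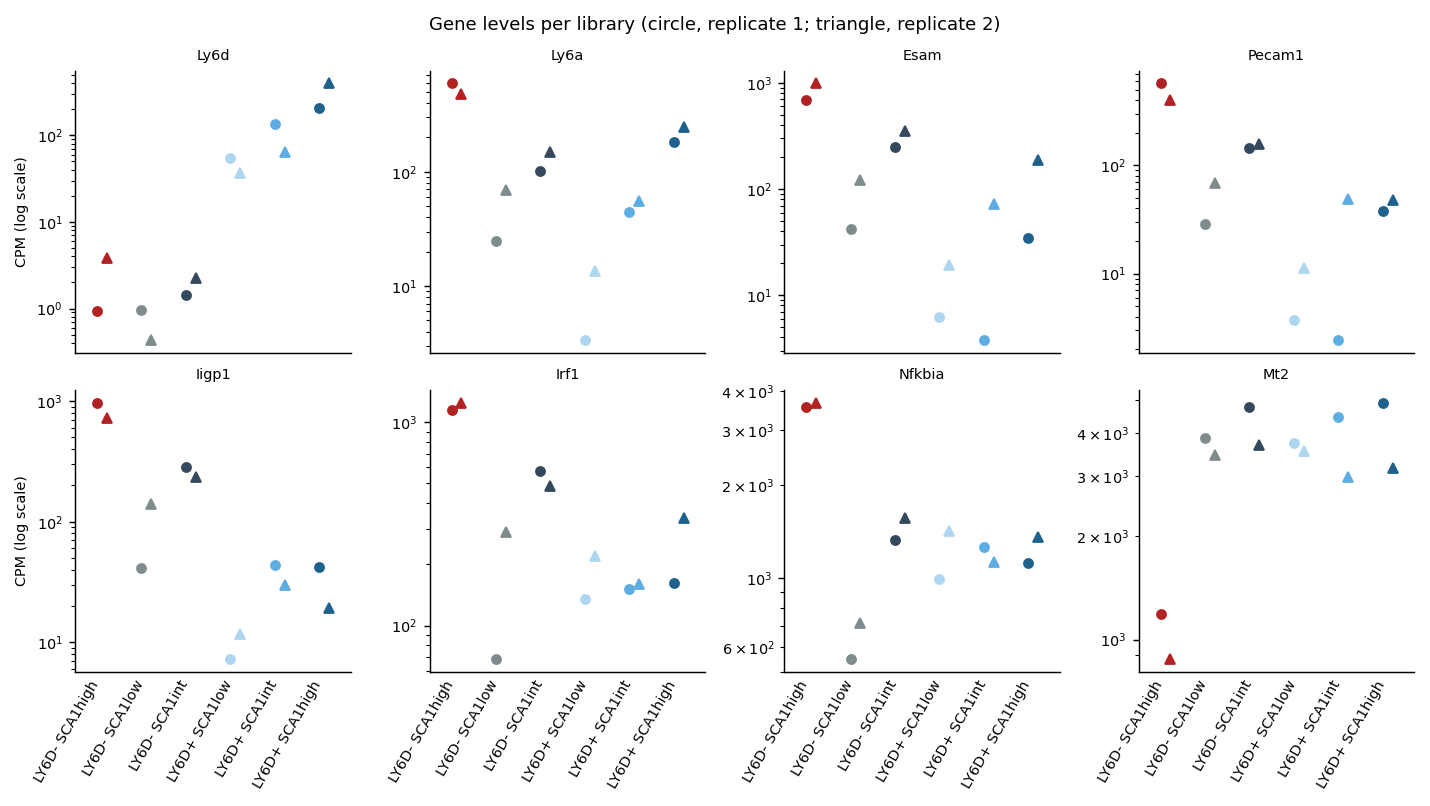
Each panel gives the CPM of 1 gene on a log axis in the 12 libraries, by population from LY6D- SCA1high at the left (circle, replicate 1; triangle, replicate 2). Ly6a, Esam, Pecam1, Iigp1, Irf1 and Nfkbia are highest in both LY6D- SCA1high libraries, Mt2 is lowest there, and Ly6d follows the LY6D gate.

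Endothelial genes made up the broadest group. Pecam1 (ENSMUSG00000020717, chromosome 11, 106654217 to 106750628, minus strand), which encodes the CD31 of the negative gate, stood at 573 and 401 CPM in LY6D- SCA1high, against 2.43 to 159 CPM with a median of 43 CPM in the others. Its log2 fold change was 3.75 ± 0.57 (SE, edgeR adjusted p = 0.000198), with no overlap between the libraries. Of 41 pan-endothelial genes tested, 30 were called higher, 0 were called lower, all 41 had a positive log2 fold change, and 31 stood above all 10 other libraries in both replicates. Their median log2 fold change was 4.05, beside 0.16 over all tested genes. The summed level of the list was 8670 and 10300 CPM in LY6D- SCA1high, against 178 to 3360 CPM with a median of 712 CPM in the others. In bulk RNA, a larger number of endothelial cells in the fraction and more of this RNA per cell cannot be told apart. The count of 30 was 31 without both doubted libraries and 27 with the carried-over counts subtracted. It was 18 without LY6D- SCA1high replicate 2.

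The called endothelial genes cover junctions, receptors, matrix partners and transcription factors. Among junction and surface proteins, Cdh5, the cadherin of endothelial adherens junctions, stood at 100 and 162 CPM in LY6D- SCA1high, against 0 to 48.4 CPM in the others (4.35 ± 1.22, SE, edgeR adjusted p = 0.0337). The highest other value, in LY6D- SCA1low replicate 2, was 44.9 CPM after the subtraction. Podxl, a sialomucin of the luminal surface of vessels and of podocytes, stood at 907 and 580 CPM in LY6D- SCA1high and at 36.7 to 189 CPM in the others (3.35 ± 0.43, adjusted p = 2.57e-05). Plvap, the protein of the diaphragms of fenestrated vessels, stood at 295 and 536 CPM in LY6D- SCA1high and at 1.56 to 151 CPM in the others. Emcn, the endothelial mucin of capillaries and veins, stood at 159 and 153 CPM in LY6D- SCA1high and at 0.431 to 69.2 CPM in the others. None of these genes overlapped between LY6D- SCA1high and the other libraries.

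Among the secreted and signalling members, Egfl7, an angiogenic factor that endothelium secretes, stood at 502 and 579 CPM in LY6D- SCA1high, against 2.8 to 188 CPM in the others (4.12 ± 0.57, SE, edgeR adjusted p = 7.04e-05). Mmrn2, an endothelial matrix glycoprotein, stood at 462 and 523 CPM in LY6D- SCA1high, against 1.99 to 196 CPM in the others (4.46 ± 0.55, adjusted p = 1.4e-05). Rasip1, a Ras-interacting protein needed to open vessel lumens, stood at 526 and 955 CPM in LY6D- SCA1high, against 1.46 to 282 CPM in the others (4.05 ± 0.6, adjusted p = 0.000144). All 3 were without overlap. The SoxF transcription factors of endothelium were called as well, but they differed between replicates. Sox17 stood at 65.7 and 119 CPM in LY6D- SCA1high and at no more than 34.8 CPM in the others, whereas Sox18 stood at 8.52 CPM in LY6D- SCA1high replicate 1 and 225 CPM in replicate 2, against 0 to 7.78 CPM in the others. Its call was lost without replicate 2. Nos3, the endothelial nitric oxide synthase, stood at 96.1 and 103 CPM in LY6D- SCA1high and at 0 to 37.2 CPM in the others. Atg9b overlaps its 3' end on the other strand and had nearly the same values, so that reads of this pair cannot be told apart.

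Markers of venous and inflamed endothelium were called in 6 of 11 tested genes, with 0 lower and a median log2 fold change of 4.03. Selp, the P-selectin that endothelium stores in granules, stood at 502 and 732 CPM in LY6D- SCA1high, against 1.24 to 259 CPM in the others (4.03 ± 0.59, SE, edgeR adjusted p = 0.000137). Vcam1, which binds leukocyte integrins, stood at 219 and 548 CPM in LY6D- SCA1high, against 1.07 to 59.9 CPM in the others (4.66 ± 0.72, adjusted p = 0.000263). Ackr1, a chemokine-binding receptor of venules, stood at 148 and 198 CPM in LY6D- SCA1high, against 0.0766 to 30.3 CPM in the others (5.55 ± 1.04, adjusted p = 0.00353). Sele, the E-selectin of inflamed vessels, was also called (279 and 172 CPM in LY6D- SCA1high), but LY6D- SCA1int replicate 1 reached 187 CPM and lies between the 2 LY6D- SCA1high libraries. Vwf and Lrg1 complete the called venous genes. Nr2f2, the transcription factor of venous identity, stood at 122 and 212 CPM in LY6D- SCA1high and overlapped the others, at 6.53 to 181 CPM (1.15 ± 0.72, adjusted p = 0.488).

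Capillary genes were called in 5 of 12 tested, with a median log2 fold change of 4.24. Fabp4, the fatty acid carrier of capillary endothelium and fat cells, stood at 744 and 1260 CPM in LY6D- SCA1high, against 2.91 to 230 CPM in the others (4.47 ± 0.51, SE, edgeR adjusted p = 2.76e-06). Cxcl12, a chemokine of stroma and endothelium, stood at 372 and 457 CPM in LY6D- SCA1high, with LY6D+ SCA1high next at 165 and 233 CPM. Cd36, a fatty acid transporter, stood at 54.7 and 133 CPM in LY6D- SCA1high and at no more than 15.7 CPM in the others. Plpp3 was called without overlap too, while Car4 rested on a single library, with 8.99 CPM in LY6D- SCA1high replicate 1 and 0.0424 CPM in replicate 2. Arterial genes were called in 3 of 10 tested (Fbln5, Dll4 and Stmn2), with a median of 3.58, and the Stmn2 call was lost in 11 of 24 alternatives. Fbln5, an elastic fibre protein, stood at 81 and 72.7 CPM in LY6D- SCA1high, against 0 to 54.3 CPM in the others. Gja4, a connexin of arteries, stood at 63.6 and 14.4 CPM in LY6D- SCA1high, and LY6D- SCA1int replicate 2 reached 18 CPM (adjusted p = 0.056).

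Lymphatic genes gave a mixed picture, with a list median of 1.95 against the mean of the others and -0.62 against LY6D- SCA1low. Of 7 tested, Prox1, the transcription factor of lymphatic identity, was called, at 41 and 49.9 CPM in LY6D- SCA1high and 0 to 23.4 CPM in the others (5.37 ± 1.44, SE, edgeR adjusted p = 0.0266). In 14 of 24 alternatives, including the fit without both doubted libraries, it was no longer called. Lyve1 stood at 0 and 11.6 CPM in LY6D- SCA1high and overlapped the others, at 0 to 15.3 CPM. The direction of its log2 fold change turned without LY6D- SCA1high replicate 2. Pdpn, which basal epithelium also expresses, stood at 6.49 and 59.5 CPM in LY6D- SCA1high, among the low values of the 10 others (2.58 to 295 CPM).

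**Figure D3:**
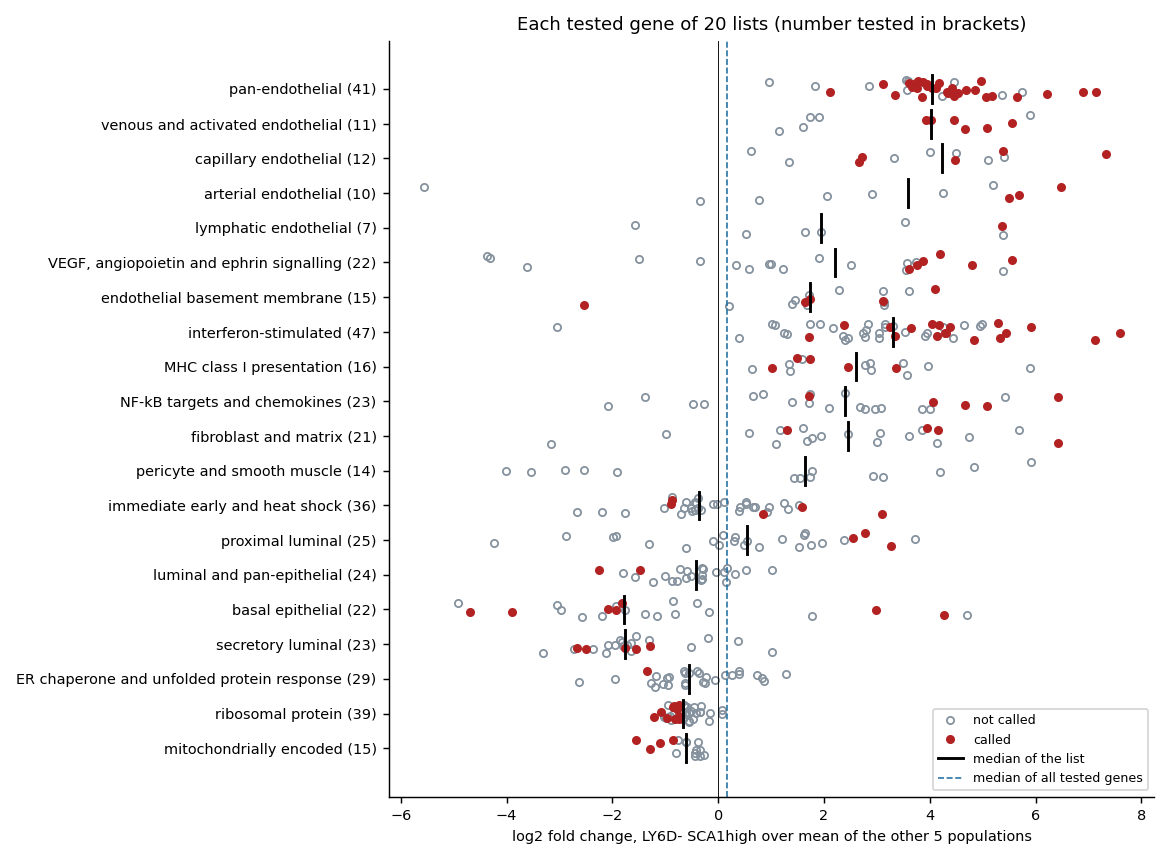
Each point is the log2 fold change of 1 gene, LY6D- SCA1high over the mean of the other 5 populations, in 20 gene lists (filled, called; open, not called); the black bar is the median of the list and the dashed line the median of all tested genes, 0.16. The pan-endothelial, venous, arterial, capillary, interferon, MHC class I, NF-kB and fibroblast lists lie to the right, with medians of 2.39 to 4.24, and the secretory and basal lists to the left, with medians of -1.76 and -1.78.

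VEGF receptors and their partners were called in 6 of 22 tested genes of the VEGF, angiopoietin and ephrin list, 0 of them lower, with a list median of 2.22. Flt1, VEGF receptor 1, stood at 749 and 925 CPM in LY6D- SCA1high, against 3.51 to 331 CPM in the others (3.87 ± 0.53, SE, edgeR adjusted p = 7.04e-05). Kdr, the main signalling receptor of VEGF, stood at 463 and 392 CPM in LY6D- SCA1high, against 2.21 to 276 CPM in the others (3.61 ± 0.54, adjusted p = 0.000162). Neither overlapped. The semaphorin receptor Plxnd1 and the co-receptor Nrp2 were called without overlap, and Nrp1 was called with 227 CPM in LY6D- SCA1high replicate 1 and 27.8 CPM in replicate 2, which is below LY6D- SCA1low replicate 2 (31 CPM). After subtraction of carried-over counts Nrp1 stood at 235 and 27.5 CPM in LY6D- SCA1high, against 0 CPM in that library and at most 13.8 CPM in any other. Its call was lost without LY6D- SCA1high replicate 1. The single called ligand was Vegfc, at 27 and 68.2 CPM in LY6D- SCA1high, and its call was lost in 17 of 24 alternatives. In the Notch list 2 of 14 genes were called, the ligand Dll4 and the glycosyltransferase Mfng, whose calls were lost in 5 and 12 of the 24 alternatives. In the BMP and TGF-beta list 2 of 20 were called, the endothelial co-receptor Eng (201 and 169 CPM in LY6D- SCA1high, against 0.755 to 84.9 CPM in the others) and the receptor Tgfbr2. Their calls were lost in 8 and 18 of the 24 alternatives, subtraction of carried-over counts included for both. Klf2, the flow-responsive factor of endothelium, stood at 126 and 231 CPM in LY6D- SCA1high, against 0.353 to 61.2 CPM in the others (3.09 ± 0.9, adjusted p = 0.0403), a call lost in 11 of the 24 alternatives.

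The genes with the largest gains in CPM include several that no list held. Aqp1, a water channel of capillaries and other tissues, stood at 2620 and 3690 CPM in LY6D- SCA1high, against 9.87 to 788 CPM with a median of 172 CPM in the others (4.13 ± 0.44, SE, edgeR adjusted p = 1.41e-06). Emp1, an epithelial membrane protein, stood at 1540 and 1860 CPM in LY6D- SCA1high, against 19.8 to 654 CPM in the others (3.56 ± 0.32, adjusted p = 6.19e-08). Rnd1, a small GTPase that loosens cell adhesion, stood at 782 and 892 CPM in LY6D- SCA1high, against 12.4 to 216 CPM in the others (4.08 ± 0.43, adjusted p = 1.13e-06). The protease Adamts1 and the kinase Pim3 were also higher in both LY6D- SCA1high libraries than in all 10 others, with log2 fold changes of 2.32 ± 0.34 and 1.67 ± 0.24. By fold change the same rule adds Galnt15, Gimap6, Stc1, Cfb, Ch25h, Pcp4l1 and Cyyr1, with log2 fold changes of 5.18 to 6.27. The calls of Cfb and Ch25h were lost in 8 and 7 of the 24 alternatives, and those of the others in 2 or 3. Galnt15, a glycosyltransferase, stood at 116 and 107 CPM in LY6D- SCA1high and at 0 to 17.9 CPM in the others.

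Of the 10 genes whose log2 levels across the 12 libraries were most like those of Pecam1, with Pearson's r of 0.971 to 0.986, 4 stand in the pan-endothelial list, 1 each in the capillary, venous and basement membrane lists, and 3 in no list. These genes share the libraries, their depth and the carried-over counts, so r is a description.

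Markers of other non-epithelial cells did not move as one. Of 21 fibroblast and matrix genes tested, 4 were called higher (Igfbp7, Gsn, Igf1 and Col6a2) and 0 lower, and the list's median was 2.45. The Col6a2 call was lost in 15 of 24 alternatives and the Gsn call in 7. With carried-over counts subtracted, Gsn stood at 763 and 842 CPM in LY6D- SCA1high, below LY6D+ SCA1high at 1020 and 1310 CPM. Igf1 then stood at 63.7 and 149 CPM in LY6D- SCA1high, and LY6D+ SCA1high replicate 2 reached 115 CPM. The summed level of the list was 2420 and 2250 CPM in LY6D- SCA1high, inside the range of 465 to 3020 CPM in the others, with LY6D+ SCA1high replicate 2 highest. Igfbp7, a secreted protein of vessels and stroma, stood at 569 and 552 CPM in LY6D- SCA1high, against 2.91 to 153 CPM in the others (3.94 ± 0.51, SE, edgeR adjusted p = 3.05e-05). The collagens did not separate: Col1a2 stood at 125 and 87 CPM in LY6D- SCA1high, against 1.53 to 170 CPM in the others, and Col1a1 at 49.6 and 49.6 CPM, against 0.383 to 113 CPM. Dcn, the proteoglycan decorin, stood at 286 and 248 CPM in LY6D- SCA1high and at 159 to 894 CPM in the others (-0.99 ± 0.32, adjusted p = 0.0701). Pdgfra, which marks fibroblasts, held 0 and 6 counts in LY6D- SCA1high and 0 to 69 counts in the others.

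Pericyte and smooth muscle genes gave 0 calls of 14 tested in either direction with edgeR, with a median log2 fold change of 1.64 and summed levels of 205 and 198 CPM in LY6D- SCA1high, against 60.3 to 224 CPM in the others. The pericyte marker Rgs5 stood at 20.8 and 1.31 CPM and Pdgfrb at 0.0782 and 10.4 CPM in LY6D- SCA1high replicates 1 and 2, so that each was seen mainly in 1 library, and the direction of each turned when that library was left out. Of 32 leukocyte genes 9 could be tested, with summed levels of 61.5 and 62.7 CPM in LY6D- SCA1high and 54.4 to 328 CPM in the others. Ptprc, which encodes the gated CD45, held 0 and 2 counts in LY6D- SCA1high and at most 4 counts in any other library. Cd3e, Lyz2, Itgam and Adgre1 held 0 counts in both LY6D- SCA1high libraries. In any other library they held at most 0, 83, 246 and 1 counts in that order, so Cd3e and Adgre1 were near the floor throughout. The single called gene of that list, Cd14, rested on 6.88 CPM in LY6D- SCA1high replicate 1, with 0 CPM in replicate 2. Red cell markers Slc4a1 and Alas2 were at 0 counts in both LY6D- SCA1high libraries, and at most 1 and 0 counts in any other library. The 6 tested erythroid and platelet genes summed to 41.8 and 117 CPM in LY6D- SCA1high, against 4.32 to 828 CPM in the others. Among MHC class II genes H2-Ab1 was called, at 15.8 and 20.2 CPM in LY6D- SCA1high and no more than 3.38 CPM in the others, with 6 genes tested, and its call was lost in 19 of 24 alternatives. The part of any of these cell types in the higher genes was not tested.

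In the list of endothelial basement membrane genes, 4 of 15 tested were called higher and 1 lower. Sparcl1, a matrix-binding glycoprotein of vessels, stood at 351 and 271 CPM in LY6D- SCA1high, against 0.689 to 77.9 CPM in the others (4.1 ± 0.68, SE, edgeR adjusted p = 0.000778). Mgp, an inhibitor of vascular calcification, stood at 431 and 527 CPM in LY6D- SCA1high, against 3.06 to 149 CPM in the others (3.12 ± 0.55, adjusted p = 0.00165). Sparc and Tinagl1 were called with log2 fold changes of 1.73 and 1.64, and the call was lost in 2 of 24 alternatives for Sparc and in 19 for Tinagl1. Col18a1, the collagen from which endostatin is cut, went the other way: it stood at 26.4 and 30 CPM in LY6D- SCA1high, low within the range of 5.8 to 475 CPM in the others (-2.54 ± 0.63, adjusted p = 0.0214). The libraries below or near it were those of LY6D- SCA1low, at 35.2 and 5.8 CPM.

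Interferon-stimulated genes were the other broad group. Of 47 tested, 18 were called higher and 0 lower, 21 stood above all 10 other libraries in both replicates, and the median log2 fold change was 3.3. The summed level was 5590 and 5380 CPM in LY6D- SCA1high, against 568 to 2460 CPM with a median of 887 CPM in the others, and LY6D- SCA1int was next. The guanylate binding protein Gbp6 stood at 95.7 and 74 CPM in LY6D- SCA1high, against 0 to 12.7 CPM in the others (7.13 ± 1.42, SE, edgeR adjusted p = 0.00608). Gbp4 stood at 170 and 64 CPM in LY6D- SCA1high, against 0.27 to 47.1 CPM in the others (5.29 ± 1.01, adjusted p = 0.00395). Isg15, a ubiquitin-like protein attached to other proteins, stood at 210 and 226 CPM in LY6D- SCA1high, against 5.6 to 80.9 CPM in the others (3.25 ± 0.71, adjusted p = 0.0124). None of these 3 overlapped. Ifi203, a DNA-binding protein of the AIM2-like family, stood at 141 and 309 CPM in LY6D- SCA1high, just above LY6D- SCA1int at 136 and 127 CPM. Tgtp1 and Tgtp2 are near-identical copies, so their calls count the same reads in part. The antiviral genes Ifit1 and Rsad2 were called as well, with the call lost in 17 of 24 alternatives for Ifit1 and in 5 for Rsad2. The count of 18 was 18 without both doubted libraries, 15 with the carried-over counts subtracted, 6 without LY6D- SCA1high replicate 1 and 9 without replicate 2. It was 9 and 11 without LY6D- SCA1int replicates 1 and 2, 11 without LY6D- SCA1low replicate 1 and 10 without LY6D+ SCA1int replicate 1.

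The 250 bases before the start site of 4 called genes of this response are shown to place its best-known elements: GAS, searched as TTCNNNGAA, in Irf1 and Socs3, and ISRE, searched as GAAA, any 2 bases and GAAA, in Isg15 and B2m. Both strands were searched, capitals mark the matches, and sequences and positions are from RefSeq on GRCm38.p6. Irf1 is chr11:53769764-53770013 on the plus strand, with the GAS 90 to 82 bases before the start; another start site of Irf1 in the table held no match. Socs3 is chr11:117969367-117969616 on the minus strand, with the GAS 154 to 146 bases before. Isg15 is chr4:156200819-156201068 on the minus strand, with 3 overlapping ISRE matches 78 to 57 bases before. B2m is chr2:122147437-122147686 on the plus strand, with the ISRE 139 to 130 bases before.
Irf1: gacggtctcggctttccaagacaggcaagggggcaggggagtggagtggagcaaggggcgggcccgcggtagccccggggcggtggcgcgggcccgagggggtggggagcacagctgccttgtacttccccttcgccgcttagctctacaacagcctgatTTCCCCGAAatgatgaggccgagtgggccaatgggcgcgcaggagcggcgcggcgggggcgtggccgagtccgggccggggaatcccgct
Socs3: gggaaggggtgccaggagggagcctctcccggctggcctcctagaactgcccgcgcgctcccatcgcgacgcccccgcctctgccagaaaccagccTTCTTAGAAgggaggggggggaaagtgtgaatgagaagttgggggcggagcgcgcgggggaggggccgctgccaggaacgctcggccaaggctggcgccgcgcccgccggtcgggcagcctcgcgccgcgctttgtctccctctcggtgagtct
Isg15: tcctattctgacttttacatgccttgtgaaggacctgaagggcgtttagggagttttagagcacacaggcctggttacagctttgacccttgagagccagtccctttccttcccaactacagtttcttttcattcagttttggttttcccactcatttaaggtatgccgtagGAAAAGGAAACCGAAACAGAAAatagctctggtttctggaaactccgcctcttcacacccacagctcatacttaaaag
B2m: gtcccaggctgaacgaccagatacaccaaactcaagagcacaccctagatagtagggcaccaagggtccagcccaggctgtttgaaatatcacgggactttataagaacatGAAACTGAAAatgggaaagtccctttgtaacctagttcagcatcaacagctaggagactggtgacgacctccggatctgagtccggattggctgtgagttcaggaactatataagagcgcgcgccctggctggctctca
Among all 32851 RefSeq promoters, 7.02% held the GAS letters and 2.98% the ISRE letters in those 250 bases. Of the 51 interferon-stimulated and MHC class I genes that matched the table, 12 held a GAS (23.5%) and 25 an ISRE (49%) in at least 1 promoter. Of the 17 called higher among them, 5 held a GAS (29.4%) and 9 an ISRE (52.9%), a share close to that of the whole list. A match describes these letters and is not a bound site.

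MHC class I presentation genes were called in 5 of 16 tested, 0 of them lower, with a median of 2.62. H2-D1 stood at 1260 and 1040 CPM in LY6D- SCA1high, against 172 to 741 CPM in the others (1.74 ± 0.27, SE, edgeR adjusted p = 0.000207). H2-K1 stood at 1370 and 1510 CPM in LY6D- SCA1high, against 304 to 869 CPM in the others (1.49 ± 0.27, adjusted p = 0.00205). H2 genes resemble each other, so which copy was read is uncertain. B2m, the light chain of class I, stood at 871 and 935 CPM in LY6D- SCA1high and was called (1.02 ± 0.27, adjusted p = 0.0266), although LY6D+ SCA1low replicate 1 reached 1110 CPM and its call was lost in 10 of 24 alternatives. Of the peptide transporter, Tap2 was called (a call lost in 13 of 24 alternatives) and Tap1 was not, though Tap1 at 72.4 and 74.2 CPM in LY6D- SCA1high lay above the 1.18 to 34.1 CPM of all others. The immunoproteasome subunits Psmb8 and Psmb9 had log2 fold changes of 2.88 ± 1.01 and 3.49 ± 1.39 and adjusted p-values of 0.106 and 0.172.

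Among 16 interferon receptor and JAK-STAT genes the feedback inhibitor Socs3 was the single call, at 635 and 513 CPM in LY6D- SCA1high, against 5.51 to 303 CPM in the others (2.32 ± 0.55, SE, edgeR adjusted p = 0.0207). Stat3, at 461 and 518 CPM in LY6D- SCA1high, lay just above the 136 to 448 CPM of the others and was not called (0.6 ± 0.35, adjusted p = 0.448). Members of the Ly6 family beside Ly6a were called too: Ly6c1 stood at 201 and 175 CPM in LY6D- SCA1high, against 0.971 to 93.3 CPM in the others, and Ly6c2 and Cd59a were the other calls among 12 tested, lost in 21 and 8 of the 24 alternatives. Ly6c1 and Ly6c2 lie side by side and are alike in sequence, so their reads may be shared.

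NF-kB targets and chemokines were called in 5 of 23 tested, 0 of them lower, with a median of 2.39 and summed levels of 5140 and 5320 CPM in LY6D- SCA1high, against 878 to 2290 CPM in the others. Of the 5 calls, Sele and Vcam1 also stand in the venous list; over all lists 31 genes stand in more than 1. Nfkbia (ENSMUSG00000021025, chromosome 12, 55489410 to 55492647, minus strand), the inhibitor that holds NF-kB in the cytoplasm and is itself induced by it, stood at 3570 and 3680 CPM in LY6D- SCA1high. The others lay at 549 to 1560 CPM with a median of 1200 CPM, so no library came near (1.72 ± 0.19, SE, edgeR adjusted p = 1.81e-06). Il6 stood at 94.4 and 99.4 CPM in LY6D- SCA1high, against 0 to 35.9 CPM in the others, and Ccl7 at 8.91 and 11.9 CPM, against 0 to 2.25 CPM. The calls of both were lost in 17 and 18 of the 24 alternatives. Cxcl1 stood at 277 and 205 CPM in LY6D- SCA1high, above the 10.9 to 182 CPM of all others, with an adjusted p of 0.0678.

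**Figure D4:**
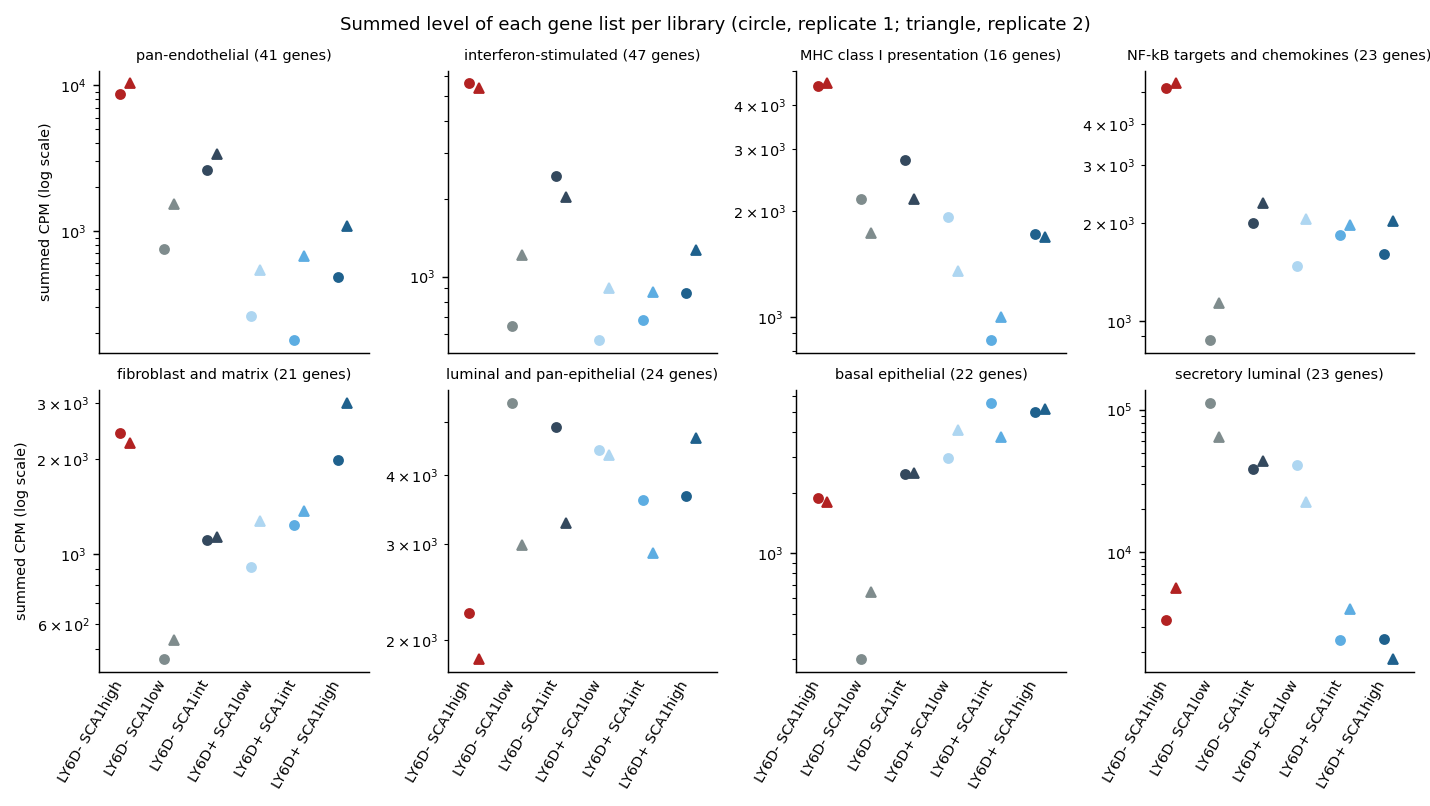
Each panel gives the summed CPM of the tested genes of 1 list on a log axis in the 12 libraries (circle, replicate 1; triangle, replicate 2). Pan-endothelial, interferon-stimulated, MHC class I and NF-kB sums are highest in both LY6D- SCA1high libraries; the fibroblast sum is as high in LY6D+ SCA1high, the luminal sum is lowest in LY6D- SCA1high, and the secretory sum separates LY6D+ SCA1high, LY6D+ SCA1int and LY6D- SCA1high from the rest.

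Immediate early genes, which tissue dissociation and stress also induce, were not higher as a group. Of 36 tested, 3 were called higher (Fosl2, Ier3 and Klf2) and 2 lower (Egr1 and Jun), with a median of -0.35 and summed levels of 17800 and 18100 CPM in LY6D- SCA1high, inside the 12200 to 30200 CPM of the others. Egr1 stood at 1590 and 1590 CPM in LY6D- SCA1high, below the 1720 to 4920 CPM of all others (-0.9 ± 0.18, SE, edgeR adjusted p = 0.00665). Jun stood at 1230 and 1110 CPM in LY6D- SCA1high, below the 1650 to 3570 CPM of all others (-0.88 ± 0.21, adjusted p = 0.0213). Fosl2 stood at 662 and 669 CPM in LY6D- SCA1high, above the 64.2 to 371 CPM of all others (1.59 ± 0.33, adjusted p = 0.00949). The calls of Egr1 and Jun were lost with library size as the only scaling, which moved the median of all genes by 0.35.

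Epithelial genes were detected in LY6D- SCA1high and differed by list. The 24 luminal and pan-epithelial genes summed to 2240 and 1850 CPM in LY6D- SCA1high, below the 2890 to 5430 CPM of all others, and 2 were called lower with 0 higher (median -0.41). Cldn4, a tight junction protein, stood at 589 and 336 CPM in LY6D- SCA1high, against 457 to 1840 CPM in the others (-1.48 ± 0.29, SE, edgeR adjusted p = 0.00559). Hoxb13, the homeobox factor of prostate identity, stood at 37.8 and 49.2 CPM in LY6D- SCA1high, against 39 to 484 CPM in the others (-2.25 ± 0.63, adjusted p = 0.0349). Both overlapped the others by 1 library, and the call of Hoxb13 was lost in 12 of 24 alternatives. Cdh1, the epithelial cadherin, stood at 391 and 288 CPM in LY6D- SCA1high, below the 533 to 748 CPM of all others, with an adjusted p of 0.108. Krt18, a luminal keratin, stood at 108 and 108 CPM in LY6D- SCA1high, below the 128 to 502 CPM of all others, and was not called. Its partner Krt8 (72.9 and 101 CPM in LY6D- SCA1high) and the adhesion protein Epcam (80.4 and 60.8 CPM) overlapped the others and were not called. The sign of the Epcam difference turned with library size as the only scaling.

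Secretory luminal genes were lower against the average but not against every population. Of 23 tested, 5 were called lower and 0 higher (median -1.76), and they summed to 3370 and 5620 CPM in LY6D- SCA1high, against 1790 to 112000 CPM in the others. Defb50 (chromosome 8, 21823539 to 21831296, plus strand), a beta-defensin, stood at 333 and 361 CPM in LY6D- SCA1high, below the 683 to 7320 CPM of all others (-2.67 ± 0.23, SE, edgeR adjusted p = 6.02e-08). Pbsn, the androgen-regulated probasin, stood at 276 and 421 CPM in LY6D- SCA1high, far below LY6D- SCA1low at 10700 and 7160 CPM but above LY6D+ SCA1high at 105 and 99.5 CPM. Msmb, Spink1 and Sbp were called lower as well. Carried-over counts bear on these values: after their subtraction LY6D- SCA1high replicate 2 held 52.3 CPM of Pbsn, 88.8 CPM of Defb50 and 1170 CPM of Spink1, and the secretory sum was 3320 and 1860 CPM in LY6D- SCA1high. Against LY6D+ SCA1high, Spink1 and Pbsn were called higher in LY6D- SCA1high, 2 of 23 secretory genes, with Defb50 lower. Both higher calls were lost with the carried-over counts subtracted, where Pbsn stood at 267 and 52.3 CPM in LY6D- SCA1high, against 104 and 101 CPM in LY6D+ SCA1high.

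Basal epithelial genes gave 5 calls lower and 2 higher of 22 tested, with a median of -1.78. Krt15 stood at 266 and 230 CPM in LY6D- SCA1high, Krt14 at 20.5 and 35.6 CPM, and Krt5 at 22.4 and 41.9 CPM. In the others these keratins reached 2730, 679 and 608 CPM, and the single population below LY6D- SCA1high was LY6D- SCA1low, with Krt5 at 3.76 and 4.16 CPM. Krt17 and Tns4 were called lower as well. The 2 higher genes of the list are also made outside epithelium. Igfbp3, a secreted binding protein of insulin-like growth factors, stood at 806 and 616 CPM in LY6D- SCA1high, against 1.08 to 200 CPM in the others (4.27 ± 0.62, SE, edgeR adjusted p = 0.000137). Cav1, the coat protein of caveolae, stood at 286 and 359 CPM in LY6D- SCA1high, against 7.51 to 67.2 CPM in the others (2.99 ± 0.62, adjusted p = 0.00868). All 5 lower calls (Krt5, Krt14, Krt15, Krt17 and Tns4) were lost with the carried-over counts subtracted.

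Of 25 proximal luminal genes 3 were called higher and 0 lower, with a median of 0.55. Besides Ly6a these were Gsdmc2 and Gsdmc3, gasdermin C copies that share sequence. Gsdmc2 stood at 401 and 230 CPM in LY6D- SCA1high, within the 1.46 to 544 CPM of the others, where LY6D+ SCA1high replicate 2 was highest. Psca, a surface protein of proximal cells, stood at 323 and 137 CPM in LY6D- SCA1high (1.97 ± 0.64, SE, edgeR adjusted p = 0.07). Aldh1a1 and Cp, by contrast, had levels of 87.2 and 55.8 CPM and of 36.4 and 33.5 CPM in LY6D- SCA1high, against medians of 283 and 225 CPM in the others, with adjusted p-values of 0.0504 and 0.0591.

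Among the genes that fell furthest, Mt2 (ENSMUSG00000031762, chromosome 8, 94172664 to 94173568, plus strand), the metal-binding metallothionein 2, stood at 1190 and 878 CPM in LY6D- SCA1high, below the 2970 to 4910 CPM of all others (-1.9 ± 0.21, SE, edgeR adjusted p = 2.41e-06). Its neighbour Mt1, named after its values were seen, stood at 156 and 151 CPM in LY6D- SCA1high, below the 285 to 1000 CPM of all others (-1.76 ± 0.39, adjusted p = 0.0144). The transcription factor Maf stood at 28.3 and 19.4 CPM in LY6D- SCA1high, below the 63.6 to 502 CPM of all others (-3.12 ± 0.6, adjusted p = 0.00383). Hk2, a hexokinase of glycolysis, stood at 29.6 and 22.4 CPM in LY6D- SCA1high, below the 65 to 299 CPM of all others. Chka, the first enzyme of phosphatidylcholine synthesis, and Acsl3, which activates long fatty acids, were below all others too, with log2 fold changes of -2.52 ± 0.53 and -4.2 ± 1.02. Lpin2, Cdc42bpg, Defb1, Rnf149 and Ank3 complete the 10 largest falls taken by the rule, between -5.5 and -2.08 on the log2 scale, Defb50 being the remaining one. The calls of Lpin2, Cdc42bpg, Defb1, Rnf149 and Ank3 were lost in 12, 8, 2, 2 and 7 of the 24 alternatives.

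Genes of protein synthesis and of mitochondria were lower in small steps. Of 39 ribosomal protein genes 10 were called lower and 0 higher (median -0.66), and 16 stood below all 10 other libraries. Rps28 stood at 1130 and 1080 CPM in LY6D- SCA1high, against 1710 to 2890 CPM in the others (-1.09 ± 0.22, SE, edgeR adjusted p = 0.00535). Rplp2 and the elongation factor Eef2 fell by 0.82 and 0.8 on the log2 scale, calls that were lost with library size as the only scaling. Of 15 mitochondrially encoded genes 4 were called lower (mt-Rnr1, mt-Nd1, mt-Nd5 and mt-Nd6), and the levels of LY6D+ SCA1high overlapped theirs. The calls of mt-Nd1, mt-Nd5 and mt-Nd6 were lost with library size as the only scaling and in 16, 13 and 18 of the 24 alternatives in all. Of 29 chaperone genes of the endoplasmic reticulum, Calr was called lower, at 319 and 459 CPM in LY6D- SCA1high, against 287 to 3500 CPM in the others, with LY6D- SCA1low highest.

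Against the 5 populations one at a time, far fewer genes passed the test. Against LY6D- SCA1low, 37 genes were higher (0.242% of those tested) and 60 lower (0.393%). This split was 20 and 117 with RLE size factors and 96 and 40 with library size as the only scaling. Against LY6D- SCA1int, 1 gene was higher (0.00655%) and 16 lower (0.105%). Against LY6D+ SCA1low, 58 were higher (0.38%) and 71 lower (0.465%), or 84 and 29 with library size as the only scaling. Against LY6D+ SCA1int, 32 were higher (0.21%) and 30 lower (0.196%), or 40 and 24 with that scaling. Against LY6D+ SCA1high, 19 were higher (0.124%) and 21 lower (0.138%). These comparisons share the LY6D- SCA1high libraries.

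The genes behind those counts differ by population. Pan-endothelial genes gave 1 call higher against LY6D- SCA1low, 0 against LY6D- SCA1int, 13 against LY6D+ SCA1low, 9 against LY6D+ SCA1int and 3 against LY6D+ SCA1high, with medians of 3.31, 1.59, 6.28, 5.08 and 4.18 in that order. Interferon-stimulated genes gave 3, 0, 3, 2 and 1 calls higher, with medians of 3.14, 1.48, 5.36, 4.51 and 3.31. Both lists were thus nearest to LY6D- SCA1int, where the 30 called pan-endothelial genes had a median level of 33.3% of that in LY6D- SCA1high and the 18 interferon genes 35%. These values are before subtraction of carried-over counts. With it the pan-endothelial sum in LY6D- SCA1low went from 750 and 1520 CPM to 368 and 386 CPM. LY6D+ SCA1high then stood higher, at 479 and 1090 CPM. The interferon sum in LY6D- SCA1low went from 643 and 1210 CPM to 435 and 531 CPM, below LY6D+ SCA1high at 882 and 1290 CPM. Ackr4, a scavenging receptor of homeostatic chemokines, separated the LY6D- SCA1high and LY6D- SCA1low libraries from all others and was singled out after its values were seen: it stood at 0.782 and 5.08 CPM in LY6D- SCA1high, at 0.86 and 1.21 CPM in LY6D- SCA1low and at 157 to 345 CPM in the other 4 populations.

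**Figure D5:**
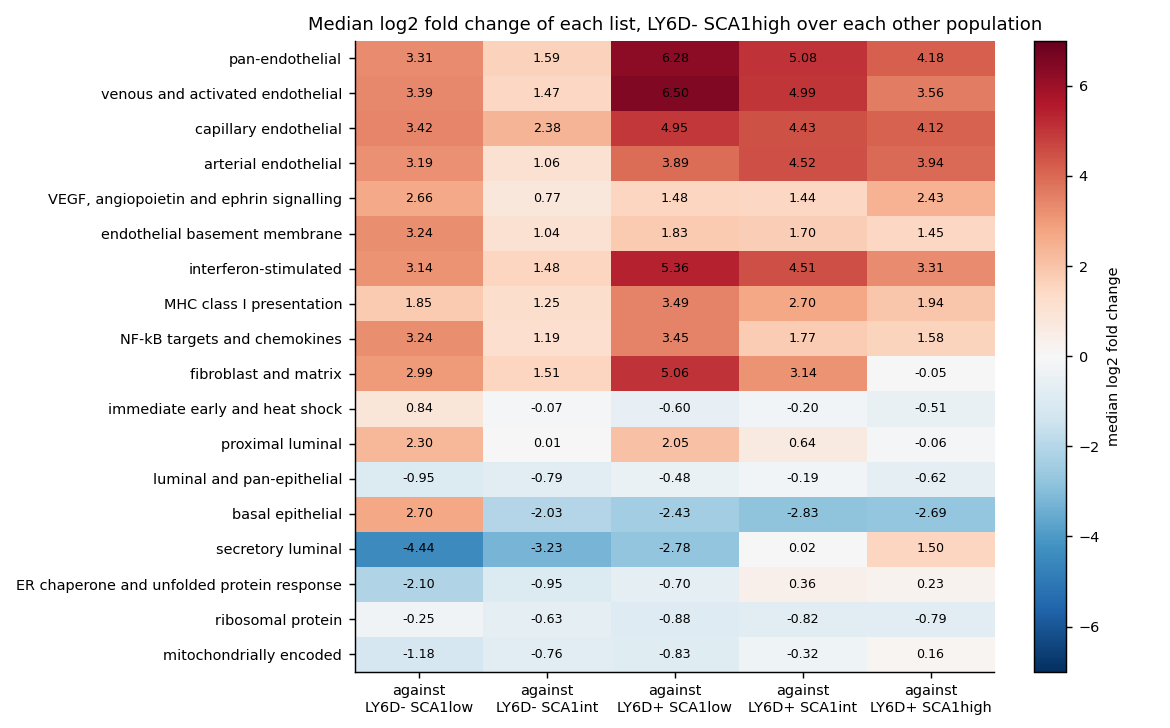
Each cell is the median log2 fold change of the tested genes of 1 list (rows) in LY6D- SCA1high over 1 other population (columns). The pan-endothelial, venous, arterial and capillary lists are positive against all 5 populations and smallest against LY6D- SCA1int. The fibroblast list is near 0 against LY6D+ SCA1high, and the secretory list runs from -4.44 against LY6D- SCA1low to 1.5 against LY6D+ SCA1high.

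Few genes were called in the same direction against each of the 5 populations. Nfkbia was the single one higher (0.00655% of tested genes), and Mt2, Defb50 and Gm45774 were lower (0.0196%). Gm45774 overlaps Mt2 on the opposite strand, and the strand setting of the counting is not given in the sources used here, so its counts and those of Mt2 cannot be told apart. Mt2 stayed in this set in each alternative run on the 5 contrasts. Defb50 left it with RLE size factors, library size only, DESeq2, limma-trend, glmTreat and the carried-over counts subtracted, and also without LY6D+ SCA1high replicate 1. Gm45774 left it with library size only, limma-trend, glmTreat and the carried-over counts subtracted. It also left without LY6D- SCA1high replicate 2, LY6D- SCA1int replicate 1 or LY6D+ SCA1low replicate 1. Nfkbia left it with RLE size factors, DESeq2, limma-trend, glmTreat and the carried-over counts subtracted, and also without LY6D- SCA1high replicate 2 or either LY6D- SCA1int library.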

How the data were processed

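RNA of 12 libraries, 2 for each of 6 populations, was measured at 3' ends. Per the submitters' processing notes, reads went through cutadapt 1.9.1, STAR 2.5.1, SAMtools 1.3.1, Picard 1.96 and featureCounts of Subread, with edgeR and the mm10 build named; the strand setting of the counting is not given in the sources used here. The authors deposited whole-number counts per gene and, beside them, a normalised signal that is each library's deposited counts times a constant. Identifiers were matched to GENCODE M21 on GRCm38: 48435 of 48795 had a symbol, and the 360 others held 0.468% of counts. Tests used the counts of 15270 genes kept by filterByExpr, TMM scaling and edgeR 4.0.16 (glmQLFit and glmQLFTest, 1 mean per population, Benjamini-Hochberg adjustment over all tested genes) in R 4.3.3. SE is the log2 fold change divided by the square root of F. CPM values are scaled by TMM.

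The carried-over share between 2 libraries is the median ratio of counts over genes of at least 30 CPM in the source and at most 20% of that in every other library. The receiver is among these other libraries, which limits the share that can be found. Alternatives were RLE size factors, library size only, no filter, DESeq2 1.42.0, limma-trend (limma 3.58.1) on the log2 of the deposited signal plus 1, glmTreat against 1.5-fold, a replicate block, each library left out, both doubted libraries left out, ribosomal RNA features left out, carried-over counts subtracted, the 10 other libraries as 1 group, and LY6D- SCA1low left out of the mean. Named genes are the 15 highest and 10 lowest by fold and the 10 highest and 5 lowest by CPM difference (called, not overlapping, average log2 CPM not under 4), with genes called against each population, up to 6 per list, and the gate and marker genes; further list members are named to complete a count. The members and lists were chosen with earlier results of these data known. On simulated counts for 15065 genes the main comparison recovered 1, 4, 16 and 24 of 50 genes changed 2-, 4-, 8- and 16-fold, 0 of them in the wrong direction, with 7 false calls.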

Additional observations from a re-analysis of the deposited data

How the results depend on the processing

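The 774 genes called against the mean of the other populations were 180 to 462 with 1 library left out, 49 with limma-trend, 331 with the replicate block, 360 without both doubted libraries, 273 with carried-over counts subtracted and 3 with the 10 others as 1 group. DESeq2 called 706. Against LY6D- SCA1low, 97 became 87 to 206 with 1 library left out, 161 with no filter, 586 with DESeq2, 62 with limma-trend and 192 without both doubted libraries. Against LY6D- SCA1int, 17 became 21 to 66 with 1 library left out, 10 with RLE, 10 with library size only, 59 with no filter, 503 with DESeq2, 7 with limma-trend, 8 with glmTreat, 68 without both doubted libraries and 10 after subtraction. Against LY6D+ SCA1low, 129 became 93 to 264, 220 with no filter, 1373 with DESeq2, 283 without both doubted libraries and 63 after subtraction. Against LY6D+ SCA1int, 62 became 54 to 175, 124 with no filter, 664 with DESeq2, 26 with limma-trend, 175 without both doubted libraries and 34 after subtraction. Against LY6D+ SCA1high, 40 became 50 to 128, 94 with no filter, 1132 with DESeq2, 11 with limma-trend, 65 with the replicate block, 87 without both doubted libraries and 3 after subtraction. The 4 genes called against each population became 2 to 13, 2 with RLE, 2 with library size only, 11 with no filter, 25 with DESeq2, 1 with limma-trend, 1 with glmTreat, 13 without both doubted libraries and 1 after subtraction. The 30 pan-endothelial genes became 18 to 31, 2 with limma-trend and 1 with the 10 others as 1 group. The 18 interferon-stimulated genes became 6 to 17, 2 with limma-trend and 0 with the 10 others as 1 group in edgeR, where 19 had an unadjusted p under 0.05; DESeq2 called 22. Signs of the log2 fold change turned for Epcam with library size only (0.09) and, with 1 library left out, for Cd14 (-2.21 to 7.52) and Rgs5 (-0.15 to 4.71), both lowest without LY6D- SCA1high replicate 1, and for Pparg (-2.86 to 8.83), Lyve1 (-5.88 to 5.16) and Pdgfrb (-1.08 to 6.63), all lowest without LY6D- SCA1high replicate 2. The cause was not tested. Of 134 called genes followed, 3 (Podxl, Nfkbia and Mt2) kept their call against the mean in all 24 alternatives, 74 lost it in 1 to 3 and 57 in more. Same-numbered libraries did not deviate together over 15 pairs of populations (correlations -0.301 to 0.235, 2 above 0.1). The library names carry 1 prefix for each replicate number, whose meaning the labels do not give, so a shared source was not tested and the replicate block, which took 774 calls to 331, stands as an alternative only. With 2 libraries per population, changes under 8-fold were seldom recovered in simulated counts.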
